A study of Mus musculus with 16 samples.

Results

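Genes of lymph node stroma and high endothelial venules were followed in inguinal white adipose tissue (iWAT), the fat pad of the mouse groin, which encloses a lymph node. The 6 genes were Ccl19, Ccl21a, Cxcl13, Glycam1, Madcam1 and Chst4, and every row of the expression table with one of these symbols was taken, which gave 8 rows of 54532, because Ccl19 and Ccl21a each have 2 rows. Bulk RNA was sequenced from 16 libraries of male mice, 4 in each group, and doxycycline was given to all of them in chow (200 mg/kg) over 5 days from an age of 8 to 10 weeks. By their labels, Has2_TG mice (Apn-Has2) carry Adiponectin-rtTA and TRE-Has2, PH20_TG mice (Apn-PH20) carry Adiponectin-rtTA and TRE-PH20, and Has2_WT and PH20_WT are the respective littermates with Adiponectin-rtTA alone, so that the rtTA and the doxycycline were shared by all 4 groups. The adiponectin promoter confines rtTA to adipocytes, and each transgene holds a mouse cDNA followed by a rabbit beta-globin 3′ end. HAS2 is an enzyme that makes hyaluronan, and PH20, encoded by Spam1, is an enzyme that digests it. The sources used here do not say whether the lymph node was left in the tissue taken for RNA. The p-values measure the spread between these samples. In the main tests these are the 8 libraries of a study, or all 16 for comparisons between studies.

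Lymph nodes are built on a framework of reticular cells and specialised vessels. Reticular cells of the T cell zone make the chemokines CCL19 and CCL21, which bind CCR7 and draw T cells and dendritic cells, and stromal cells of the B cell follicle make CXCL13, which binds CXCR5 and draws B cells. High endothelial venules are the vessels through which lymphocytes enter: GlyCAM-1, made by Glycam1, carries sulphated sugars that lymphocytes bind, CHST4 is the enzyme that adds the sulphate, and MAdCAM-1, best known in gut-associated nodes, binds the integrin α4β7 (Itga4 and Itgb7). Lymphotoxin from lymphocytes, received by the lymphotoxin β receptor on stroma, keeps these genes active.

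The sequences of the chemokine rows came first, because near-identical copies decide which row a read can be given to. The table holds 4 rows described as Ccl19 or its pseudogenes and 6 described as Ccl21 genes, of which 3 and 4 had any reads, and Gm10591 is a further coding row on chromosome 4. In the GRCm38 assembly and the GENCODE release M21 transcripts, the 324 exon bases of the pseudogene Ccl19-ps3 were found whole inside the 327 coding bases of Ccl19, at bases 4 to 327, with 0 mismatches. Ccl19-ps1 differed from Ccl19 at 4 bases. The first 150 coding bases of Ccl19 (minus strand, exons within chr4:42755212-42756330) are shown with the same stretch of Ccl19-ps1 (plus strand, chr4:41921405-41922538) and of Ccl19-ps3 (plus strand, chr4:42132559-42133689). Capitals mark the bases where Ccl19 and Ccl19-ps1 differ, T2C, C68A and C118T in this stretch, counted from 1 at the first coding base of Ccl19 with the Ccl19 base first.
Ccl19: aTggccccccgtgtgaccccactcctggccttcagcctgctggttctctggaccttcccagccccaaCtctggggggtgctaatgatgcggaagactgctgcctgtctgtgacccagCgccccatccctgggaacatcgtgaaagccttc
Ccl19-ps1: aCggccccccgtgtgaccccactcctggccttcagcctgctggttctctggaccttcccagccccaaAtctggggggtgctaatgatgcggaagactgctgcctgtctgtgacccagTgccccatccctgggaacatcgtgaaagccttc
Ccl19-ps3: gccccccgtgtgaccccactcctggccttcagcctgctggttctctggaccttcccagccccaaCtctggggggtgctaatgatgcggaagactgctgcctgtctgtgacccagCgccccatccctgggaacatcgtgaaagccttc

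The coding sequence of Ccl21a on chromosome 4 has 402 bases and differed from those of Ccl21b and Gm10591 at 2 bases each, while Ccl21b and Gm10591 were identical over all 402. Bases 66 to 215 are shown for Ccl21a (minus strand, exons within chr4:42773522-42773853) and Gm10591 (plus strand, chr4:42612260-42612591), with capitals at the differing bases, T84A and C194T by the same convention.
Ccl21a: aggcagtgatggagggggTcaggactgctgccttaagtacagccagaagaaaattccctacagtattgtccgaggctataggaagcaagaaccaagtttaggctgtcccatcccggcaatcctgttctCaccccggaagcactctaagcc
Gm10591: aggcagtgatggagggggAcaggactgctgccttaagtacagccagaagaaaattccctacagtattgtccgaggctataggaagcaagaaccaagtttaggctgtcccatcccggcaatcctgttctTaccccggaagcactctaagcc

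The second rows of Ccl19 and Ccl21a lie on the unplaced scaffold JH584294.1, and their sequences were not compared here. Reads in shared stretches cannot be assigned to one row by their letters, so values of single Ccl19 and Ccl21 rows are uncertain. For the exact tests and the proportions within a library, the sum over the rows described as Ccl19 or as Ccl21 is given too, without Gm10591.

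The 250 bases before the RefSeq transcription start (GRCm38.p6) are shown for 3 members that differed in how widely they were detected: Cxcl13 in all libraries, Madcam1 at low level in several, and Glycam1 almost wholly in a few. Capitals mark, on either strand, 3 G followed by any 5 bases and 2 C, the letters of a general NF-κB site, the family of factors that lymphotoxin activates. Such a match was present in 45.8% of the 32851 promoter windows of this length.
Cxcl13 (plus strand, chr5:95956689-95956938): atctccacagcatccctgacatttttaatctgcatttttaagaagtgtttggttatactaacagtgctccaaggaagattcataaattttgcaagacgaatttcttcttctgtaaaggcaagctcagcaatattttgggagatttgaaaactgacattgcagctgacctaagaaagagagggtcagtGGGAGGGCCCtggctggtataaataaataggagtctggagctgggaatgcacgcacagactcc
Madcam1 (plus strand, chr10:79664309-79664558): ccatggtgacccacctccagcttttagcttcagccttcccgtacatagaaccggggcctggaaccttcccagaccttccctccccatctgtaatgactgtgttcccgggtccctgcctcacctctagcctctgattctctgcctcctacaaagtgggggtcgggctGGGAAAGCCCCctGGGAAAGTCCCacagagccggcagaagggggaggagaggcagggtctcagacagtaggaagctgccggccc
Glycam1 (minus strand, chr15:103565082-103565331): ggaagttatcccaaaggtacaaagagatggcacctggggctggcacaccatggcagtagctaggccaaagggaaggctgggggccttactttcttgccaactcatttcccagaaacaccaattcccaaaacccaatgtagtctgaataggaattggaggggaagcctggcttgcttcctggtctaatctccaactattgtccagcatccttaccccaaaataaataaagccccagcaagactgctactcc

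The Madcam1 window holds 2 stretches, each matched on both strands with an offset of 1 base, the Cxcl13 window holds 1 stretch and the Glycam1 window none. Among the windows not shown, Ccl19 holds 1 match, and Ccl21a and Chst4 hold none. A count of 3 in 6 members is near that background share, and a match is a string of letters and not a measured site.

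Library depth ran from 14421692 to 26751729 reads on genes. The transgenes were checked first. Has2 stood at 0.417 to 0.806 FPKM (fragments per kilobase of gene, scaled to the library's reads) in Has2_WT and at 1.86 to 3.24 FPKM in Has2_TG, with no overlap. Spam1 had 6, 12 and 5 reads in PH20_TG replicates 2, 3 and 4, no read in the library labelled PH20_TG1 and none in the other 12 libraries. Has2 was also at 3.32 FPKM in the library labelled PH20_TG1 and at 3.26 FPKM in PH20_TG4, both above all 4 Has2_TG libraries. It was at 0.0990 and 0.380 FPKM in PH20_TG3 and PH20_TG2 and at 0.330 to 0.897 FPKM in PH20_WT. PH20_TG4 thus held 5 Spam1 reads beside a Has2 level like that of Has2_TG. The transgene readout of the library labelled PH20_TG1 thus goes against its label, and PH20 comparisons are given with it and, for the rows tested, without it.

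A set of 4 control libraries stood apart from the other 12 in lymphocyte genes. Cd79a, a chain of the B cell receptor complex, was at 93.2 FPKM in Has2_WT1, 93.7 FPKM in Has2_WT2, 123 FPKM in PH20_WT1 and 50.6 FPKM in PH20_WT3, and at 0.263 to 2.14 FPKM in each of the other libraries. Cd3e, a chain of the T cell receptor complex, was at 4.88 to 14.9 FPKM in the 4 and at 0.00 to 0.654 FPKM in the others. The adipocyte gene Adipoq marked the tissue in every library, and its 2 lowest values, 751 and 765 FPKM, were in Has2_WT1 and PH20_WT1, while Has2_WT2 at 1603 FPKM and PH20_WT3 at 1101 FPKM lay within the 936 to 1748 FPKM of the other 12. Epithelial genes (12 listed, among them the milk protein gene Csn2) summed to 0.385 to 10.9 FPKM per library. In bulk tissue, fewer cells of a type and less RNA per cell cannot be told apart.

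The T cell zone chemokine Ccl21a was counted almost wholly on its scaffold row (ENSMUSG00000095320, JH584294.1, 121048 to 121713, minus strand). That row was at 22.9, 14.0, 0.00 and 1.82 FPKM in Has2_WT replicates 1 to 4 and had 0 reads in each of the 4 Has2_TG libraries. It was at 21.3, 0.00, 58.5 and 0.00 FPKM in PH20_WT replicates 1 to 4, and at 0.00, 0.375, 0.149 and 0.00 FPKM in PH20_TG, the latter from 4 reads in all. High values thus occurred in the 4 control libraries rich in Cd79a, and Has2_WT4 held a further 14 reads without being rich in Cd79a (0.755 FPKM). Both transgenic groups overlapped their controls, because Has2_WT3, PH20_WT2 and PH20_WT4 were at 0 as well. The chromosome 4 row of Ccl21a (ENSMUSG00000094686, 42772860 to 42773993, minus strand) had 32 reads in PH20_WT1, 3 or 4 in Has2_WT1, Has2_WT2 and PH20_WT3, and 0 in the other 12. Gm10591 had 44, 14, 69 and 19 reads in Has2_WT1, Has2_WT2, PH20_WT1 and PH20_WT3, none in Has2_TG and at most 6 elsewhere.

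Ccl19 (ENSMUSG00000071005, chromosome 4, 42754525 to 42756577, minus strand), the other CCR7 ligand, was seen in few libraries. It had 187 reads (10.9 FPKM) in PH20_WT3, 11 reads (0.728 FPKM) in Has2_WT2, 7 reads (0.353 FPKM) in PH20_WT1 and 1 read in PH20_TG3, and no read in the other 12 libraries, Has2_WT1 included. The scaffold row (ENSMUSG00000094661) had 0 reads in all 16. The pseudogene Ccl19-ps3, whose exons are identical to Ccl19 coding sequence, held more reads than Ccl19 in every library with reads on either row except PH20_WT3.

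Of the reads on Ccl19 rows, Ccl19-ps3 took 49 of 49 in Has2_WT1, 100 of 111 in Has2_WT2 and 238 of 256 in PH20_WT1, but 66 of 253 in PH20_WT3, a share of 26.1% (exact 95% binomial interval 20.8 to 32.0%) against 93.0% (89.1 to 95.8%) in PH20_WT1. These intervals, like all intervals given here, cover counting error only. The sum over Ccl19 rows was therefore close in PH20_WT1 and PH20_WT3, at 256 and 253 reads, although the Ccl19 row alone differed by 7 against 187. Outside the 4 libraries Ccl19-ps3 had 25 reads in PH20_WT4, 10, 16 and 16 in PH20_TG replicates 2, 3 and 4, and 4 in Has2_WT3, where Glycam1 had between 0 and 2. It had no read in any Has2_TG library.

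**Figure D1:**
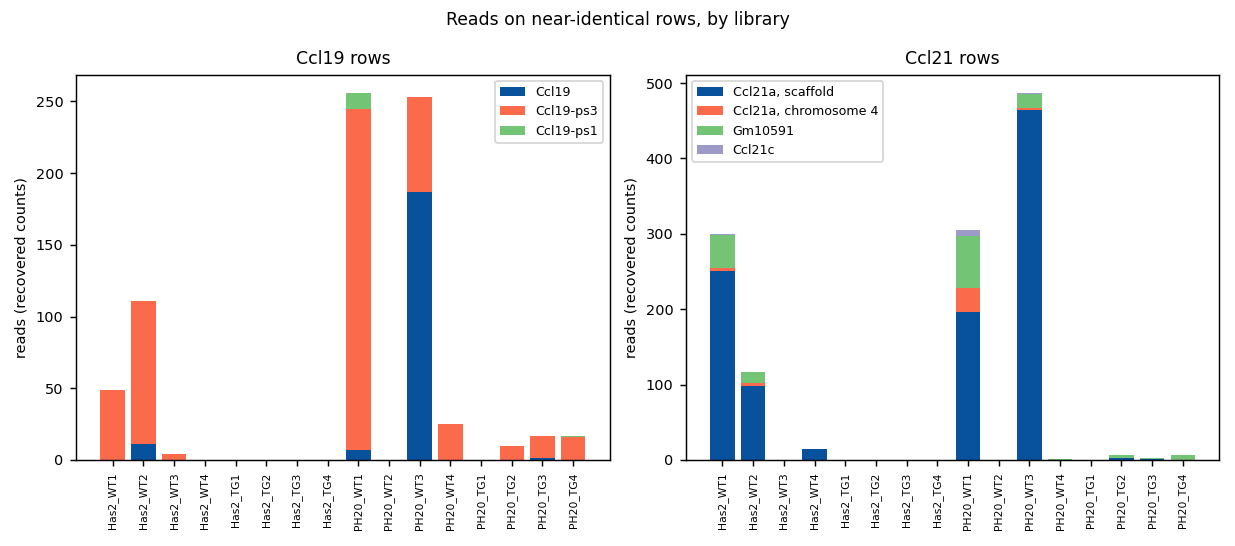
Reads recovered from FPKM on the rows of Ccl19, Ccl19-ps3 and Ccl19-ps1 (left) and of Ccl21a, Ccl21c and Gm10591 (right), stacked, 1 bar per library. Has2_WT1, Has2_WT2 and PH20_WT1 hold mostly Ccl19-ps3 among Ccl19 rows, PH20_WT3 holds 187 reads on Ccl19 itself, and the scaffold row of Ccl21a takes most Ccl21 reads.

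The follicle chemokine Cxcl13 (ENSMUSG00000023078, chromosome 5, 95956951 to 95961068, plus strand) was the one member with reads in all 16 libraries, from 16 to 978. It was at 31.2, 25.6, 0.819 and 4.33 FPKM in Has2_WT replicates 1 to 4 and at 5.14, 10.1, 9.89 and 11.1 FPKM in Has2_TG. The Has2_TG libraries lay between the 2 high and the 2 low controls. In the other study it was at 31.3, 6.30, 11.3 and 2.65 FPKM in PH20_WT and at 9.13, 1.14, 1.62 and 5.13 FPKM in PH20_TG, so those groups overlapped too. The 2 higher PH20_TG libraries were the library labelled PH20_TG1 and PH20_TG4, the 2 with Has2 above 3 FPKM, and the part of that difference in the Cxcl13 values was not tested. In order of the group mean, Cxcl13 was at 15.5 ± 15.2 FPKM in Has2_WT, 12.9 ± 12.8 in PH20_WT, 9.04 ± 2.65 in Has2_TG and 4.25 ± 3.71 in PH20_TG (SD, n = 4), and each neighbouring pair of groups overlapped in its values.

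The venule gene Glycam1 (ENSMUSG00000022491, chromosome 15, 103562759 to 103565081, minus strand) was the most abundant of the venule members and was nearly limited to the Cd79a-rich libraries. It was at 13.6, 8.66, 0.00 and 0.00 FPKM in Has2_WT replicates 1 to 4, from 788, 322, 0 and 0 reads, and had 0 reads in all 4 Has2_TG libraries. It was at 12.0, 0.00, 3.68 and 0.00 FPKM in PH20_WT, and PH20_TG held 2 reads in replicate 3 and none in the others. A library with 0 reads may have had up to 3, which for Glycam1 is 0.0558 to 0.0987 FPKM in the 11 libraries at 0. Of the FPKM summed over 16 libraries, 99.9% of Glycam1 was in those 4 control libraries.

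The sulphotransferase gene Chst4 (ENSMUSG00000035930, chromosome 8, 110029153 to 110039740, minus strand) followed the same libraries at a much lower level. It had 25, 18, 0 and 0 reads in Has2_WT replicates 1 to 4, 6, 0, 14 and 0 in PH20_WT, and none in the 8 transgenic libraries. Its highest level was 0.452 FPKM, in Has2_WT2. Per kilobase and within a library, Chst4 was at 0.00957 to 0.0844 times Glycam1 in those 4.

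Madcam1 (ENSMUSG00000020310, chromosome 10, 79664559 to 79668537, plus strand) was low and did not keep to the same libraries. It had 0, 20, 13 and 0 reads in Has2_WT replicates 1 to 4 and 0, 4, 0 and 0 in Has2_TG. It had 64, 13, 16 and 0 reads in PH20_WT and 0, 10, 10 and 11 in PH20_TG. Has2_WT1, which had the most Glycam1 reads, had no Madcam1 read, whereas 6 libraries outside the Cd79a-rich 4 had 4 to 13. The 4 held 56.2% of its summed FPKM, close to the 59.7% for Cxcl13 and below the 98.0 to 100% of the other 5 rows with reads.

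**Figure D2:**
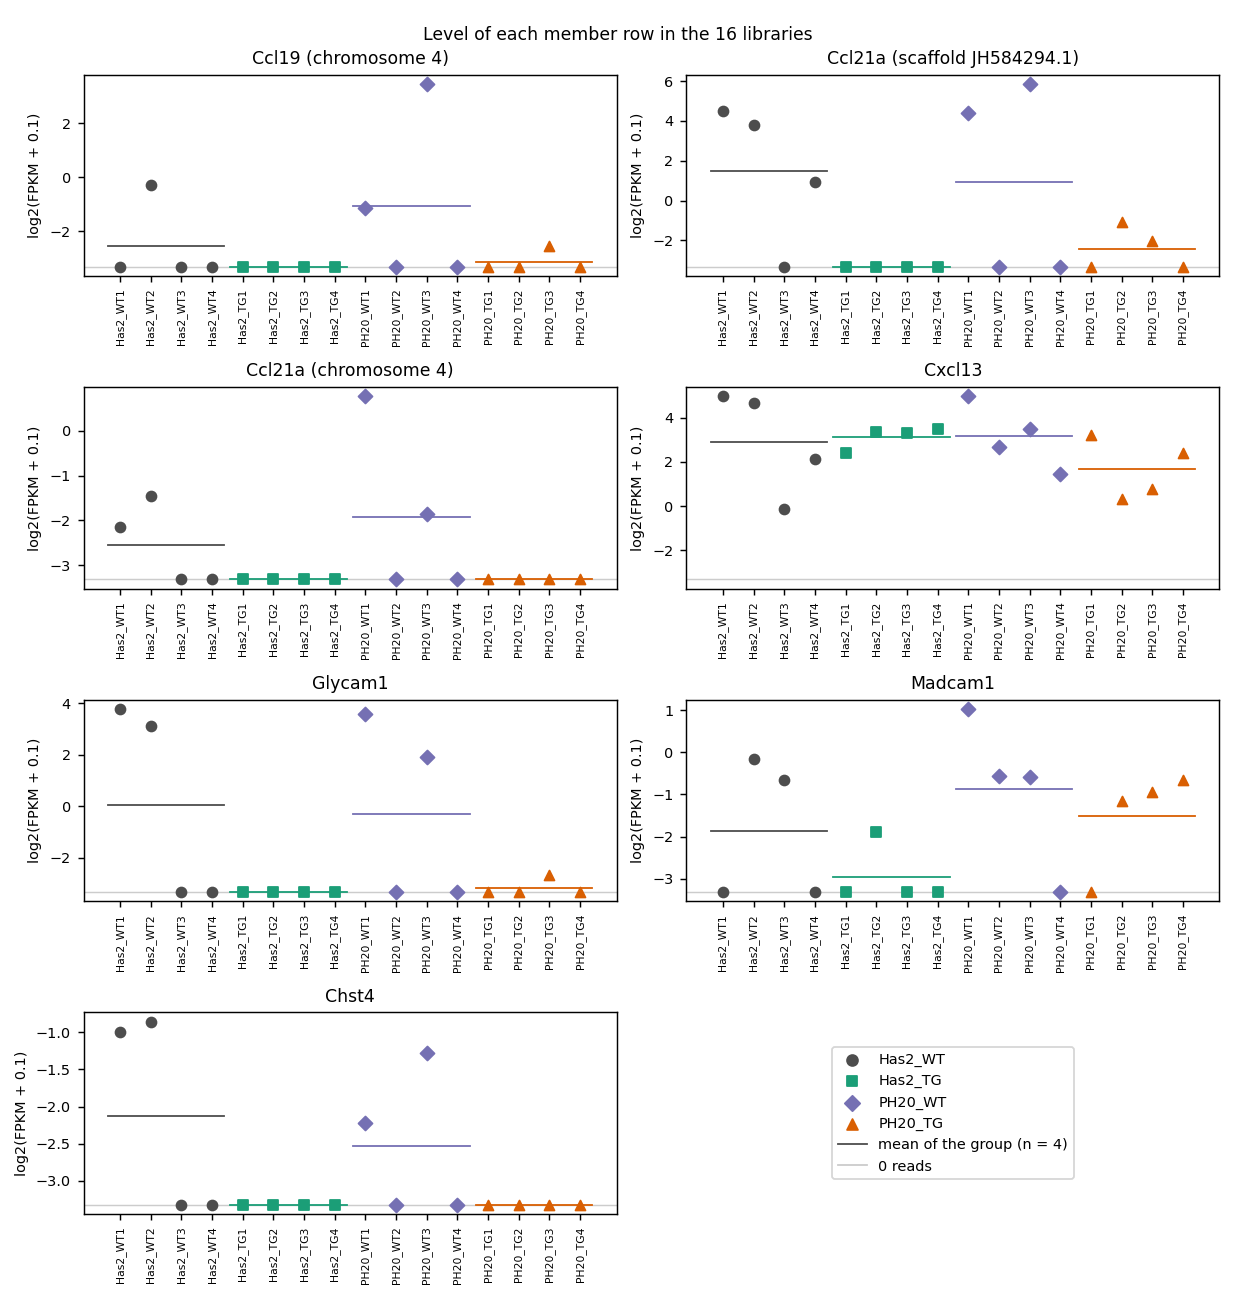
Level of the 7 member rows with any read, as log2(FPKM + 0.1), in each of 16 libraries, with the group mean as a line and the value of 0 reads as a grey line. Glycam1, Chst4 and the scaffold row of Ccl21a are highest in Has2_WT1, Has2_WT2, PH20_WT1 and PH20_WT3, Cxcl13 is present in every library, and Madcam1 is scattered.

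Each transgenic group was compared with its own controls by limma on log2(FPKM + 0.1) where the 8 libraries of the study averaged 50 reads or more. Of the 8 rows, 2 reached that minimum in the Has2 study (Cxcl13 and Glycam1) and 3 in the PH20 study (these and the scaffold row of Ccl21a), and they could do so only through the control libraries in the case of Glycam1 and Ccl21a. None of these passed an unadjusted p-value of 0.05 or the adjusted threshold in either study. Over all 12606 genes tested in the Has2 study 10.0% passed the unadjusted threshold, 6.25% higher and 3.75% lower in Has2_TG, and over 12532 genes in the PH20 study 6.59% did, 3.20% higher and 3.39% lower in PH20_TG.

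In Has2_TG against Has2_WT, Glycam1 had a log2 fold change of -3.39 (SE 1.60, adjusted p = 0.538 by limma) and Cxcl13 one of 0.21 (SE 0.97, adjusted p = 0.973). The scaffold row of Ccl21a, just under the minimum at a mean of 45.4 reads, had a fold change of -4.81 with no minimum of reads (SE 1.54, unadjusted p = 0.0121 and adjusted p = 0.562 by limma), and it was the one row called under that setting. In that fit 800 of 25564 genes were called lower. Against the limit that 0 reads allow (3 per library), the mean of Glycam1 was at least 78.5-fold lower in Has2_TG, that of Ccl21a at least 25.8-fold and that of Chst4 at least 3.23-fold. Without Has2_WT1 the bounds for Glycam1 and Ccl21a were 40.8-fold and 14.0-fold, and without Has2_WT2 that for Chst4 was 2.03-fold. For Glycam1 and Chst4 the control mean came from Has2_WT1 and Has2_WT2 alone, as Has2_WT3 and Has2_WT4 also had 0 reads. Without both, no read of these genes was left in either group. The bounds cover counting in the transgenic libraries and not the spread between mice. In PH20_TG against PH20_WT, Glycam1 had a log2 fold change of -2.88 (SE 1.52, adjusted p = 0.731), the scaffold row of Ccl21a one of -3.34 (SE 2.10, adjusted p = 0.753) and Cxcl13 one of -1.49 (SE 0.83, adjusted p = 0.740), all by limma. Without the library labelled PH20_TG1, whose transgene readout goes against its label, these were -2.83, -3.05 and -2.0. Without PH20_TG4, the other library of that group with high Has2, 0 of the 3 rows were called, beside 418 of 12573 genes called lower. Reads per library total of Glycam1 were 340 times higher in PH20_WT than in PH20_TG (95% interval 93.7 to 2811, counting error only), from 741 against 2 reads, and 103 times higher without PH20_WT1 (28.0 to 857), which held 586 of the 741. The 2 reads were in PH20_TG3, without which the mean was at least 46.8-fold lower in PH20_TG. The controls PH20_WT2 and PH20_WT4 had 0 Glycam1 reads as well.

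Leaving out 1 library changed these calls. Glycam1 passed the unadjusted threshold without Has2_WT3 or Has2_WT4, at -4.52 in both (adjusted p = 0.377 and 0.288, limma). Over all genes 572 of 12674 were called lower without Has2_WT3 and 592 of 12653 without Has2_WT4. The scaffold row of Ccl21a passed without Has2_WT3, at -6.42 (adjusted p = 0.0950, limma), and without any one Has2_TG library, which also brought it to the minimum of reads. Without 1 Has2_TG library, 329 to 466 genes (of 12565 to 12659) were called lower. In the PH20 study Glycam1 at -3.89 and the scaffold row of Ccl21a at -4.75 passed without PH20_WT2 or PH20_WT4, and Cxcl13 passed without PH20_WT4 at -2.05 or without the library labelled PH20_TG1 at -2.0, with adjusted p-values of 0.522 to 0.644 by limma. In those PH20 fits 655 of 12577 genes were called lower without PH20_WT2, 529 of 12572 without PH20_WT4 and 611 of 12510 without the library labelled PH20_TG1. The controls whose removal brought a call for Glycam1 or Ccl21a held 0 or few reads of them.

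Single rows were also compared by an exact two-sided permutation test over the 70 splits of 4 against 4 libraries, whose smallest possible p is 0.0286. No member row reached it. A row with reads in fewer than 4 of the 8 libraries of a study cannot reach it, whatever its read numbers. For such rows the test cannot decide. The exact p was 0.143 for the scaffold row of Ccl21a in the Has2 study, where 3 of 4 controls and 0 of 4 transgenic libraries had reads, and 0.429 for Glycam1 in both studies. Cxcl13 gave 0.971 in the Has2 study and 0.171 in the PH20 study, Chst4 0.429 in both, and Madcam1 0.429 and 0.486. For Ccl19 the exact p was 1.00 in the Has2 study and 0.429 in the PH20 study on its own row, and 0.143 and 0.457 for the sum of its rows. The sum of the Ccl21 rows, Gm10591 left out, had a log2 difference of -4.83 in the Has2 study (exact p = 0.143) and of -3.38 in the PH20 study (exact p = 0.429).

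The Cxcl13 comparison depended on the control libraries with lymphocyte genes. With the mean level of B cell genes as a covariate, Cxcl13 was higher in Has2_TG by 2.11 on the log2 scale (SE 0.54, unadjusted p = 0.00375, adjusted p = 0.240, limma, with 5.66% of all genes called higher), and with the T cell genes by 1.95 (SE 0.67, unadjusted p = 0.0178, adjusted p = 0.440, limma, with 5.39% of all genes called higher). Without Has2_WT1 and Has2_WT2, a choice made after the data were seen, the difference was 2.12 (SE 0.59, unadjusted p = 0.00725, adjusted p = 0.287, limma, with 5.96% of all genes called higher). Those were also the 2 controls with the most Cxcl13, so their removal by itself moves the difference upward, and 2 controls at 0.819 and 4.33 FPKM remained against 5.14 to 11.1 FPKM. Within the Has2 study, B and T cell genes also summed highest in those 2 controls. The covariates thus bear on the same libraries, and the 3 settings are not separate support. The same 3 settings in the PH20 study gave -0.12, -0.36 and -0.40 (SE 0.77 to 0.85), none past the threshold. Glycam1 went to -0.04 in the Has2 study and to 0.46 in the PH20 study with the B cell covariate, and the scaffold row of Ccl21a to 0.91 in the PH20 study. Both rows had nearly all their reads in libraries rich in B cell genes, so these shifts are not separate support either. Without the 4 libraries both of these rows had too few reads to be tested.

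**Figure D3:**
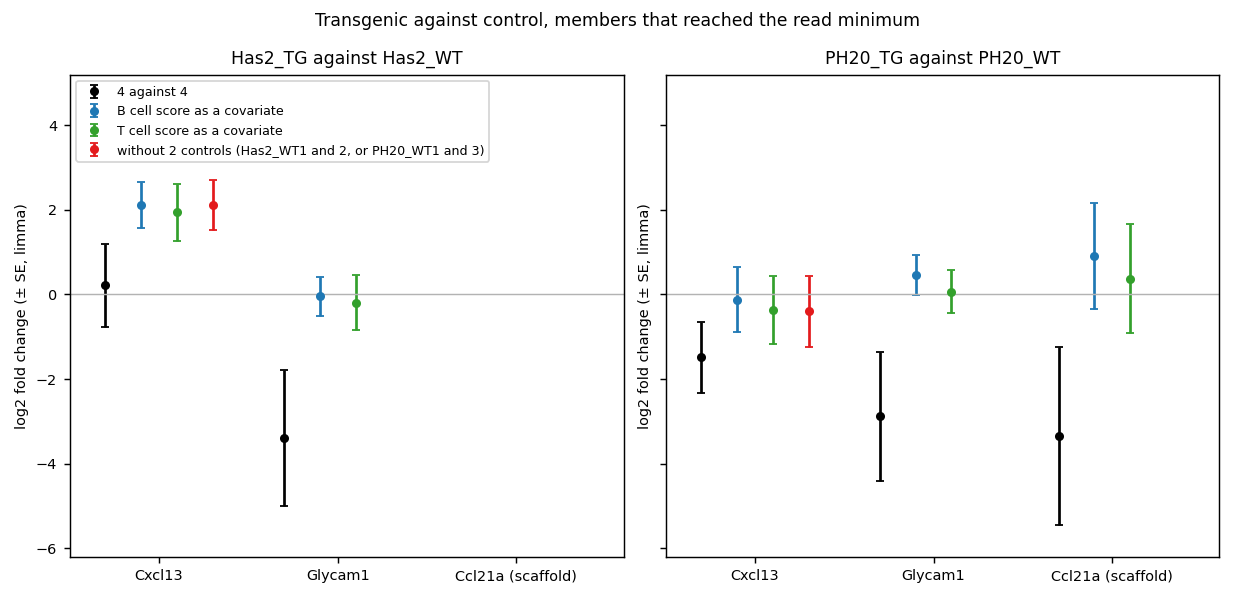
Log2 fold change (± SE, limma) of transgenic against control for the members that reached the read minimum, with all 8 libraries (black), with a B cell or T cell covariate (blue, green) and without 2 control libraries (red). A missing point is a row under the minimum in that setting. Cxcl13 lies near 0.21 with all Has2 libraries and at 1.95 to 2.12 in the other settings, while Glycam1 moves from -3.39 to -0.19 and -0.04.

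A fit of all 16 libraries tested whether the effects differed between the studies. None of the 3 rows tested passed the threshold (background 7.70% of 12593 genes, 3.68% higher and 4.03% lower), and the difference, PH20 effect minus Has2 effect, was -1.70 for Cxcl13 (SE 1.41, adjusted p = 0.811 by limma). With B cell genes as a covariate it was -1.86 (SE 0.81, unadjusted p = 0.0370, adjusted p = 0.484, limma, with 4.76% of all genes called lower). Between the control groups, PH20_WT against Has2_WT, none of 3 rows passed (background 10.1% of 12673 genes, 4.52% higher and 5.59% lower in PH20_WT), with log2 differences of 0.24 for Cxcl13, -0.58 for the scaffold row of Ccl21a and -0.35 for Glycam1, each smaller than its SE. The 2 control groups come from different lines and studies, which cannot be told apart.

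Levels within one library do not depend on how much of it was sequenced, so members were also set against each other there. In the 4 Cd79a-rich libraries Glycam1 was at 0.0729 to 0.145 times the FPKM of Cd79a, and Cxcl13 at 0.224 to 0.335 times. Cxcl13 was 2.30 to 3.08 times Glycam1, and these ratios spanned a factor of 1.34. Among the other 12 libraries, with Glycam1 at or near 0, Cxcl13 was 0.965 to 42.1 times Cd79a, and in Has2_TG it was 9.36 to 42.1 times. Because Cd79a set the 4 libraries apart and is the denominator here, the gap between these ratios follows from the grouping.

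Of the Cd79a-rich libraries, PH20_WT3 had the highest proportion of T zone chemokines to Glycam1, while the other 3 were alike for Ccl21 but not for Ccl19. The scaffold row of Ccl21a was 1.69 times Glycam1 in Has2_WT1 (interval 1.46 to 1.95), 1.61 times in Has2_WT2 (1.27 to 2.03) and 1.77 times in PH20_WT1 (1.5 to 2.09), but 15.9 times in PH20_WT3 (13.2 to 19.2). Over all rows described as Ccl21 there were 3.02 reads per Glycam1 read in PH20_WT3 and 0.323 to 0.403 in the other 3. This sum leaves out Gm10591, which held up to 44 reads in a Has2_WT library and up to 69 in a PH20_WT library. The Ccl19 row alone was 2.97 times Glycam1 in PH20_WT3 and 0.0294 and 0.0840 times in PH20_WT1 and Has2_WT2, but most Ccl19 reads of the latter lay on Ccl19-ps3. Over all Ccl19 rows the step was smaller, with 1.63 reads per Glycam1 read in PH20_WT3 (interval 1.33 to 2.01), 0.437 in PH20_WT1 (0.376 to 0.507), 0.345 in Has2_WT2 (0.275 to 0.429) and 0.0622 in Has2_WT1 (0.0456 to 0.0830). The interval of Has2_WT1 thus lay below those of Has2_WT2 and PH20_WT1. Cxcl13, at 3.08 times Glycam1 in PH20_WT3, showed no such step. Chst4 was lowest against Glycam1 in PH20_WT1, at 0.00957 times (interval 0.00350 to 0.0210), and highest in PH20_WT3, at 0.0844 times (0.0451 to 0.146). PH20_WT3 is a single library, and Has2_WT and PH20_WT hold 2 Cd79a-rich libraries each and the transgenic groups none, so these proportions have no replicate test.

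**Figure D4:**
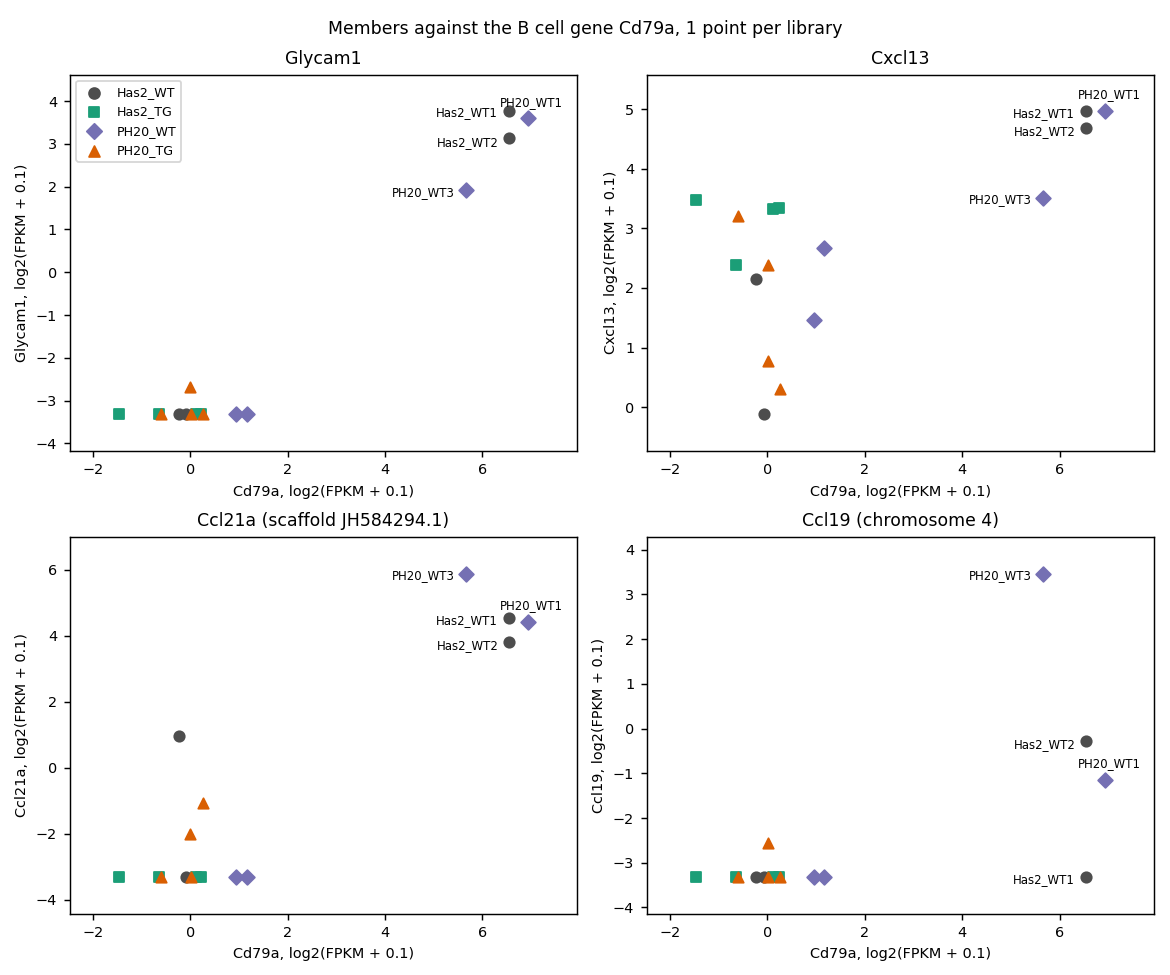
Level of 4 member rows against Cd79a, both as log2(FPKM + 0.1), 1 point per library, with the 4 Cd79a-rich control libraries named. Glycam1 is at 0 or near it outside these 4, Cxcl13 is not, and PH20_WT3 is highest for Ccl21a and Ccl19 although its Cd79a is the lowest of the 4.

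The receptors and ligands of the members were read from lists. For these and the lists below, 6.25% of all genes tested were higher and 3.75% lower in Has2_TG, and 3.20% and 3.39% in PH20_TG. Without the Cd79a-rich libraries of each study, 5.96% were higher and 3.64% lower in Has2_TG, and 2.51% and 2.01% in PH20_TG. Among 12 receptors and adhesion partners, 11 were tested in the Has2 study, where 1 passed higher and 0 lower, with a median log2 fold change of -0.97 beside -0.03 over all genes tested. In the PH20 study 10 were tested, 0 passed higher and 2 lower, with a median of -0.87 beside 0.01. Without the Cd79a-rich libraries 7 were tested in each study. Of those, 2 passed higher and 0 lower in the Has2 study (median 0.83), and 0 in either direction in the PH20 study (median -0.02). The CCR7 gene Ccr7 was at 14.3 to 44.4 FPKM in the 4 Cd79a-rich libraries and at 0.00 to 1.23 FPKM elsewhere, and the CXCL13 receptor gene Cxcr5 at 2.51 to 8.35 FPKM against 0.00 to 0.0904 FPKM. Itgal, an integrin chain of leukocytes, was among those lower in PH20_TG, at -1.53 (SE 0.57, adjusted p = 0.703, limma). Itgb7, the β7 chain, was present in every library at 2.19 to 58.5 FPKM. Ackr1, a chemokine-binding receptor of venules, was higher in Has2_TG by 1.48 (SE 0.37, adjusted p = 0.150, limma).

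Other genes of venules and of the lymphotoxin pathway were counted in the same way, beside the same shares over all genes (6.25% higher and 3.75% lower in Has2_TG, 3.20% and 3.39% in PH20_TG). Of 20 listed enzymes and surface genes of high endothelial venules 16 were tested, with 1 higher and 0 lower in the Has2 study (median -0.14) and 1 higher and 1 lower in the PH20 study (median -0.10). Cd34, a surface sialomucin of vessels and progenitors, was the one higher in Has2_TG, by 1.62 (SE 0.30, adjusted p = 0.0755, limma). Of 15 lymphotoxin pathway genes 11 were tested, with 0 higher and 2 lower in the Has2 study (median -0.34) and 1 higher and 0 lower in the PH20 study (median -0.23). Ltb, a lymphotoxin subunit made by lymphocytes, was lower in Has2_TG by a log2 fold change of -4.12 (SE 1.29, adjusted p = 0.283, limma), and its receptor Ltbr was higher in PH20_TG by 0.61 (SE 0.17, adjusted p = 0.664, limma). Of the Ltb FPKM summed over all libraries, 93.2% lay in the Cd79a-rich libraries. Without them 10 lymphotoxin pathway genes were tested in each study, with 1 higher and 0 lower in both (median 0.13 in the Has2 study and 0.15 in the PH20 study).

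Over all genes tested, 6.25% were higher and 3.75% lower in Has2_TG, and 3.20% and 3.39% in PH20_TG. Of 18 reticular and follicular dendritic cell genes 15 were tested in each study, with 2 higher and 1 lower in Has2_TG (median 0.08) and 1 higher and 2 lower in PH20_TG (median 0.01). Those higher in Has2_TG were Cd248 at 2.08 (SE 0.39, adjusted p = 0.0755, limma) and Pdpn at 1.64 (SE 0.44, adjusted p = 0.189, limma), both also made by fibroblasts of other tissues, and the one lower was Fcer2a, which B cells also make. Clu, made by follicular dendritic cells and many other cells, was lower in PH20_TG at -1.06 (SE 0.46, adjusted p = 0.731, limma). Without the Cd79a-rich libraries 4 of 13 genes of this list were higher and 0 lower in Has2_TG (median 0.38). In PH20_TG 0 of 12 passed in either direction (median 0.29). Of 12 lymphatic endothelial genes 8 were tested, with 4 higher and 0 lower in Has2_TG (median 0.54) and 0 in either direction in PH20_TG (median -0.36). Those higher included Ackr2, a chemokine scavenger, at 1.64 (SE 0.57, adjusted p = 0.355, limma) and the lymphatic growth factor gene Vegfc at 1.10 (SE 0.43, adjusted p = 0.432, limma). Among lymphatic markers, mean Lyve1 was at 11.3 FPKM in Has2_WT and 18.4 FPKM in Has2_TG, and Flt4 at 1.04 and 1.05 FPKM. Prox1, under the minimum of reads, was at 0.155 FPKM in Has2_WT and 0.0225 FPKM in Has2_TG.

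Of the lymphocyte lists, 0 B cell genes were higher and 6 of 19 lower in Has2_TG (median -2.88), and 0 were higher and 7 of 19 lower in PH20_TG (median -2.83). Of 20 T cell genes 0 were higher and 5 lower in Has2_TG (median -2.59), and 0 higher and 7 lower in PH20_TG (median -2.14). The shares over all genes were 6.25% higher and 3.75% lower in Has2_TG, and 3.20% and 3.39% in PH20_TG. Without the 4 Cd79a-rich libraries only 4 B cell genes and 1 T cell gene reached the minimum of reads in the Has2 study, of which 2 B cell genes were higher and none lower (over all genes in that fit 5.96% higher and 3.64% lower), and 4 B cell and 5 T cell genes in the PH20 study, of which 1 of each was lower and none higher (over all genes 2.51% higher and 2.01% lower). Of 12 adipocyte genes 0 passed in either study, of 12 blood endothelial genes 1 was higher in each, and of 11 skeletal muscle genes 0 passed in Has2_TG and 10 were lower in PH20_TG (median -4.32). No epithelial gene reached the minimum. The part of these lists in the member values was not tested beyond the covariates given above.

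**Figure D5:**
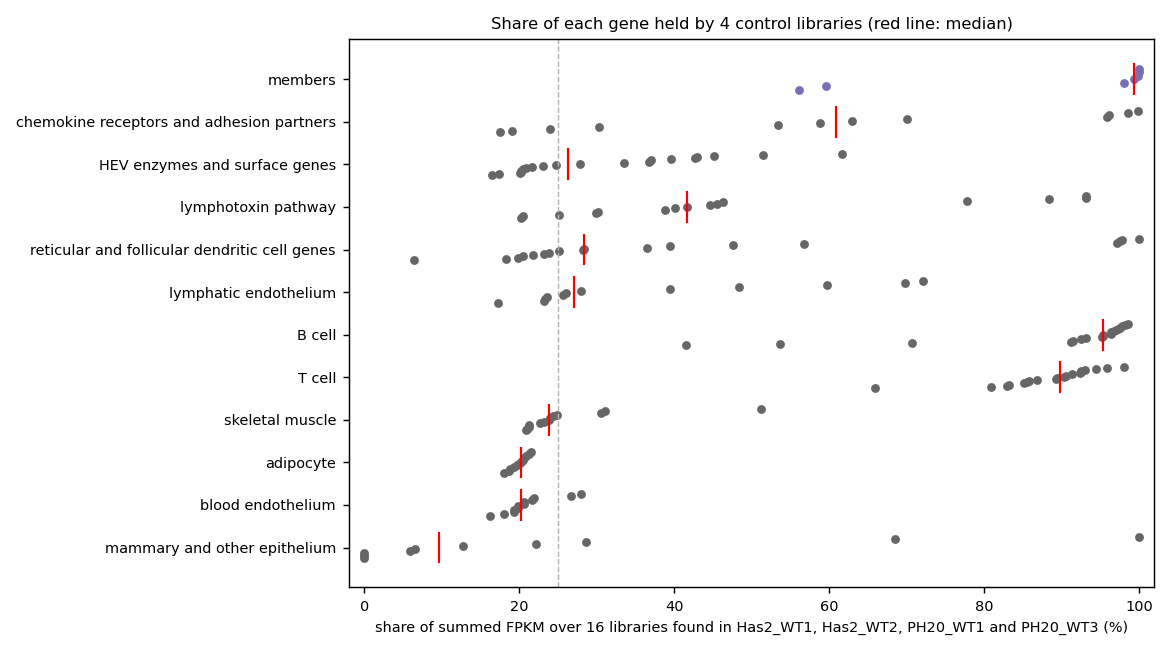
Share (%) of each gene's FPKM, summed over 16 libraries, that lay in Has2_WT1, Has2_WT2, PH20_WT1 and PH20_WT3, 1 point per gene with reads, by list, with the list median in red and 25% dashed. The member median is 99.4%, the B cell median 95.4% and the T cell median 89.9%, against 26.3% for other venule genes and 20.2% for both adipocyte and blood endothelial genes.

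Over 12593 genes that averaged 50 reads or more the median share of FPKM in the 4 libraries was 24.3%, and 67 of them (0.532%) had more than 90% there. Of the 3 member rows that averaged 50 reads or more 2 did. The other 4 rows with reads were below that minimum, so they have no like background here, and 3 of them were above 90%. The 4 libraries were set apart by Cd79a, and because lymphocyte genes and members were known to be high in the same libraries, this share is a description and no test was made of it.

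The genes whose pattern over the 16 libraries was nearest to that of each member were found by the root mean square difference of centred log2(FPKM + 0.1). For Glycam1 these were Cxcr5 (0.52), the B cell transcription factor gene Pax5 (0.55) and Cd79b (0.60), all with at least 95.3% of their FPKM in the 4 libraries. For the scaffold row of Ccl21a they were Iglc3 (1.28), Fcmr (1.44) and Cd79a (1.45), each B cell genes and less close. For Cxcl13 they were Itgb7 (0.69), Plxnc1 (0.71) and Plcg2 (0.73), of which Itgb7 had 63.0% of its FPKM in the 4 libraries. For Chst4 the nearest was Clu (0.45), for Madcam1 Snrpg (0.94), for Ccl19 Sh3bp1 (1.38) and for the chromosome 4 row of Ccl21a Rinl (0.49), the last from rows with few reads. For the mean of the 7 rows the 10 nearest were Gimap3, Fam169b, Nup210, Vmn2r97, Il2rg, Colq, Sept1, Trim7, Prkcq and Adgrg5, at differences of 0.52 to 0.64. With a pseudocount of 1, 4 of these 10 stayed among the nearest. For single rows at that pseudocount, Itgb7 stayed nearest to Cxcl13 and Iglc3 to the scaffold row of Ccl21a. The nearest became Blk for Glycam1, Herc1 for Chst4, Dnajc9 for Madcam1, Rogdi for Ccl19 and Camk4 for the chromosome 4 row of Ccl21a.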

How the data were processed

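Bulk RNA-seq of iWAT from 16 mice was analysed. The authors mapped reads to GRCm38 with STAR 2.7.9a, counted reads per gene by STAR's gene count mode, which keeps uniquely mapped reads, and checked quality with FastQC 0.11.9 and MultiQC 1.12. The authors tested genes with DESeq2. The table deposited holds FPKM per gene and library, with the gene length used, and how FPKM was scaled between libraries is not given in the sources used here. FPKM × length gave whole reads in 100% of values (tolerance 0.01), and no comparison columns were used. The library total behind FPKM was 0.886 to 1.14 times the reads on genes, with 14421692 to 26751729 reads per library. No 2 libraries of a group were duplicates (smallest chi-square per degree of freedom 36.3 over 24 pairs).

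Because the table holds FPKM, a count test was not the main test. limma 3.58.1 (R 4.3.3), with a variance trend, was fitted on log2(FPKM + 0.1) for genes that averaged 50 reads or more, p-values were adjusted by Benjamini-Hochberg over all genes tested, and a call is an unadjusted p under 0.05. Folds on this scale understate changes of low genes. Recovered reads entered voom as an alternative. Exact permutation tests went through every split in Python 3.11.15, and binomial intervals used scipy 1.17.1, with pandas 2.3.3, numpy 2.4.6 and Biopython 1.88. A count of 0 was read as up to 3 reads. B and T cell scores were the mean log2(FPKM + 0.1) of the tested genes of each list, members left out. The limma script was tested on simulated data with known changes.

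The members and gene lists were chosen with earlier results of these data known. Genes named were the members, the transgenes, their binding partners and the copies of Ccl19 and Ccl21. The 3 genes of each list with the smallest p in each study, the nearest in pattern and cell type markers were named too. Ccr7 and the other receptors named were part of that rule. A gene of the receptor list is not reported here. Alternatives were another pseudocount, other minimums, scaling, voom, a common fit, the replicate block, covariates and leaving out libraries. Leaving out the Cd79a-rich libraries, summing copies and voom without a minimum were added after seeing the data.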

Additional observations from a re-analysis of the deposited data

Results flagged for a closer look

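In groups of 4 libraries, the gap of the highest or lowest library to its nearest neighbour was divided by the range of the group and compared with Dixon's critical value at 95%. Chance marks about 1 in 20 groups, and 6 of the 21 sets of a member row and a group that had any spread were marked; where 3 of 4 libraries are at 0 the ratio is 1 whatever the number of reads. Ccl19 gave 1.00 in Has2_WT through 11 reads in Has2_WT2, 0.968 in PH20_WT through 187 reads in PH20_WT3 and 1.00 in PH20_TG through 1 read in PH20_TG3. The chromosome 4 row of Ccl21a gave 0.891 in PH20_WT through 32 reads in PH20_WT1. Glycam1 gave 1.00 in PH20_TG through 2 reads in PH20_TG3, and Madcam1 gave 1.00 in Has2_TG through 4 reads in Has2_TG2. Of these, the 187 reads of Ccl19 and the 32 of Ccl21a were the largest, and both were in control libraries rich in Cd79a.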

How the results depend on the processing

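Of the 8 member rows, 2 were tested in the Has2 study and 3 in the PH20 study, and 0 of these were called. In the Has2 study the scaffold row of Ccl21a was called lower in 3 settings, whose minimums it reached. These were no minimum of reads (800 of 25564 genes lower), a mean FPKM of at least 1 (483 of 12722) and the minimum taken over all 16 libraries (470 of 12593). Cxcl13 was called higher with the B cell or the T cell covariate or without Has2_WT1 and Has2_WT2 (5.66%, 5.39% and 5.96% of genes higher). With voom and no minimum 3 were called, Ccl21a, Glycam1 and Chst4, all lower (1036 of 25564 genes lower). When 1 library was left out 0 to 2 were called. In the PH20 study 1 was called with voom and no minimum (Glycam1, lower, beside 658 of 26041 genes lower) and 0 to 3 when 1 library was left out. In PH20_WT against Has2_WT 1 was called with the T cell covariate (Glycam1, lower, beside 767 of 12673 genes lower). For the difference between studies Cxcl13 was called lower with the B cell covariate (600 of 12593 genes lower) or without the 4 Cd79a-rich libraries (288 of 12269). All-gene calls were 1261 of 12606 in the Has2 study, 1971 of 25564 with voom and no minimum, and 949 to 1472 (of 12408 to 12674) when 1 library was left out. In the PH20 study they were 826 of 12532, 1305 of 26041 with no minimum and 1536 of 26041 with voom and no minimum. They were 550 of 12175 without PH20_WT1 and PH20_WT3, and 569 to 1170 (of 12309 to 12578) when 1 library was left out. The causes were not tested.

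The direction changed as follows, on the log2 scale. Cxcl13 in the Has2 study went from 0.21 to -0.050 with voom and -0.047 with voom and no minimum, and ran from -0.80 to 0.90 when 1 library was left out. In the PH20 study the B cell and T cell covariates gave 0.91 and 0.37 for Ccl21a and 0.46 and 0.068 for Glycam1. Between the control groups Cxcl13 went to -0.071 with the T cell covariate and ran from -0.78 to 0.92 when 1 library was left out, Ccl21a went to 0.10 with a pseudocount of 1 and ran from -2.23 to 0.83, and Glycam1 ran from -1.64 to 0.89. The difference between studies for Glycam1 ran from -0.73 to 1.80. When some control libraries were left out, Glycam1 or Ccl21a fell under the minimum of reads and gave no value.

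Groups share replicate numbers, but the numbers did not pair the samples throughout. Same-numbered deviations correlated at -0.18 to 0.13 in the Has2 study and -0.04 to 0.42 in the PH20 study. In the PH20 study replicates 1 and 2, at 0.35 and 0.42, matched their own number best, as did replicate 2 in the Has2 study. Whether the PH20 samples are paired in part was thus not settled. With the replicate block, all-gene calls in the PH20 study were 1302 of 12532 and 1 member was called (Cxcl13, adjusted p = 0.470 by limma). Depth limits Ccl19, Madcam1, Chst4 and the chromosome 4 row of Ccl21a, whose values rest on few reads.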
